A study of Homo sapiens with 9 samples.

Results

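Genes named ZNF with a number form a large family that mostly encodes zinc finger transcription factors, and 265 of them were transcribed at a level of at least 10 CPM in OVCAR4 cells, CPM being a gene's count scaled to the total of its library. Members were the protein-coding genes whose symbol is ZNF, a number and, for some, a letter, with a mean of at least 10 CPM over the 9 libraries, taken before any further scaling between libraries. The rule took in 265 of 508 protein-coding genes of this name, in a table of 61487 genes, and each of the 265 was among the 14630 genes tested. OVCAR4 is an established human line grown out of a high-grade serous carcinoma of the ovary. PRMT5i cells were Pt-resistant OVCAR4 cells given 5 uM of the PRMT5 inhibitor EPZ015666 for 5 days, Pt-resistant cells were the same resistant line with DMSO, and naive cells were the chemo-naive line with DMSO, with 3 libraries in each group. The labels give all 9 libraries the genotype WT. The resistant line had been selected under a platinum drug, which the sources name as cisplatin in some places and carboplatin in others, and whether it descends from a single clone is not stated. The libraries of a group came from triplicate wells, so the p-values reflect how wells differed, and that spread may be technical.

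A C2H2 zinc finger is a short fold held by a zinc ion between a pair of cysteines and a pair of histidines, and arrays of such fingers read DNA bases along the major groove. Many ZNF proteins also carry a KRAB domain, which recruits the corepressor TRIM28 (KAP1), and through it the histone H3 lysine methyltransferase SETDB1 and the HP1 proteins, to the bound site. KRAB zinc finger proteins are known above all for silencing transposable elements, and their genes lie in clusters of copies, most densely on chromosome 19. Other members carry a SCAN dimerisation domain, and some ZNF proteins bind RNA, ribosomes or the spindle in place of DNA. PRMT5 places symmetric dimethylation on arginine residues of histones, splicing factors and other proteins, and EPZ015666 blocks its activity. The comparisons ask which of these genes differed between PRMT5i and Pt-resistant cells, between PRMT5i and naive cells, and between Pt-resistant and naive cells.

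The libraries held 14320929 to 19114811 counts. PRMT5 mRNA, the target of the inhibitor, stood at 117 ± 10.6 CPM in PRMT5i cells, 117 ± 10.1 in Pt-resistant cells and 121 ± 1.48 in naive cells (SD, n = 3 each), and its level in PRMT5i cells was not separated from that in Pt-resistant cells (log2 fold change -0.01 ± 0.08 (SE), edgeR adjusted p = 0.959). Of the 8 serous and epithelial markers examined, 7 were expressed and WT1 was near 0 in each group, at 0.22 CPM in PRMT5i cells, 0.32 CPM in Pt-resistant cells and 0.25 CPM in naive cells. Summed over the list, these markers gave 3124 to 3159 CPM in PRMT5i cells, 3777 to 3909 CPM in Pt-resistant cells and 3914 to 4185 CPM in naive cells. The 5 immune markers summed to at most 5.21 CPM in any library. Of the 6 fibroblast and endothelial markers COL3A1 and DCN were at or near 0, and group means reached at most 0.819 CPM for LUM and 2.65 CPM for VWF. COL1A1 averaged 10.2 CPM in PRMT5i cells, 3.83 CPM in Pt-resistant cells and 6.94 CPM in naive cells. PECAM1 averaged 43.7 CPM in PRMT5i cells, 57.4 CPM in Pt-resistant cells and 95.4 CPM in naive cells. The 13 mitochondrially encoded mRNAs took 6.26 to 8.31% of counts in PRMT5i cells, 4.45 to 5.19% in Pt-resistant cells and 5.97 to 7.82% in naive cells. The Pt-resistant libraries lay below those of both other groups. This share therefore moved together with the PRMT5i against Pt-resistant and the Pt-resistant against naive comparisons, and its part in the results below was not tested.

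The level alone chose the members, so levels are a description. The mean raw level of the 265 genes ran between 10.03 and 450.6 CPM with a median of 25.04 CPM, 11 genes stood at 100 CPM or more, and 105 were below 20 CPM. Just inside the limit were ZNF57 at 10.3 CPM, ZNF431 at 10.2 CPM and ZNF555 at 10.03 CPM, and just outside it were ZNF549 at 9.92 CPM, ZNF417 at 9.90 CPM and ZNF548 at 9.85 CPM. For 47 members the raw mean of at least 1 group was under 10 CPM, which was the case in PRMT5i cells for 36, in Pt-resistant cells for 9 and in naive cells for 13. Passing the limit depended on a single group for 24 members, whose mean over the 6 libraries of the other groups was under 10 CPM. This held for PRMT5i cells in 6 of them, for Pt-resistant cells in 14 and for naive cells in 7, with 3 counted for more than 1 group, and a higher level in that group was favoured by the rule, so that levels but no test are given where such a member is named for it. Per kilobase of exon, ZNF146 (OZF, overexpressed in some carcinomas) had the highest level, at 109 CPM per kb, followed by ZNF593 at 69.9 and ZNF787 at 63.6 CPM per kb. All exon bases of ZNF593 lie antisense to another gene, and the sources used here do not say which strand was counted, so its level is uncertain.

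In the longest coding transcript of each gene, 157 members (59.2%) carried a KRAB domain, against 177 of the 243 family genes below the limit (72.8%). A SCAN domain was found in 12 members, and 8 of these carried both domains. The finger pattern used (C-X2-4-C-X12-H-X3-5-H) matched between 0 and 33 times per protein with a median of 10, and 5 members, ZNF330, ZNF503, ZNF862, ZNF185 and ZNF839, had no match. Chromosome 19 held 119 of the members, 96 of them with KRAB, followed by chromosome 7 with 22, chromosome 16 with 17 and chromosome 1 with 14.

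Most members were lower in PRMT5i than in Pt-resistant cells. Between PRMT5i and Pt-resistant cells 179 members fell (67.5%) and 24 rose (9.06%), at an adjusted p under 0.05 in the edgeR quasi-likelihood test, while 62 did not pass. Among these, 12 of the falls belonged to members that passed the limit through Pt-resistant cells alone and 3 of the rises to members that passed it through PRMT5i cells alone. Over all 14630 genes tested, 30.5% fell and 31.9% rose, and among the 9102 other tested genes of at least 10 CPM 35.4% fell and 31.5% rose. The members' median log2 fold change was -0.41, against 0.01 over all tested genes and -0.03 over the other genes of at least 10 CPM. Changes of 2-fold or more were rarer, with 28 members lower, beside 6.51% of all tested genes, and 1 higher, ZNF680, beside 11.4% of all tested genes. Where a bracket gives a share of all tested genes, here and below, it is the share of the 14630 genes that met the same condition and not that of the members. The 3 PRMT5i libraries lay wholly below the 3 Pt-resistant libraries for 185 members (32.8% of all tested genes) and wholly above them for 27 (33.7% of all tested genes).

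The family's summed level showed the same gap. The 265 genes together gave 8274 ± 201 CPM in PRMT5i cells, 11422 ± 170 CPM in Pt-resistant cells and 10523 ± 867 CPM in naive cells (SD, n = 3 each), and their share of all counts was 0.809% in PRMT5i cells, 1.14% in Pt-resistant cells and 1.07% in naive cells. The highest PRMT5i library, at 8411 CPM, stood below the lowest naive library, at 9776 CPM, and the lowest Pt-resistant library, at 11288 CPM, stood below the highest naive library, at 11474 CPM, so that PRMT5i cells were separate from both other groups while Pt-resistant and naive cells overlapped. Counts are relative to each library and come from bulk cultures, so less of these RNAs in each cell and fewer cells that carry them cannot be told apart.

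**Figure D1:**
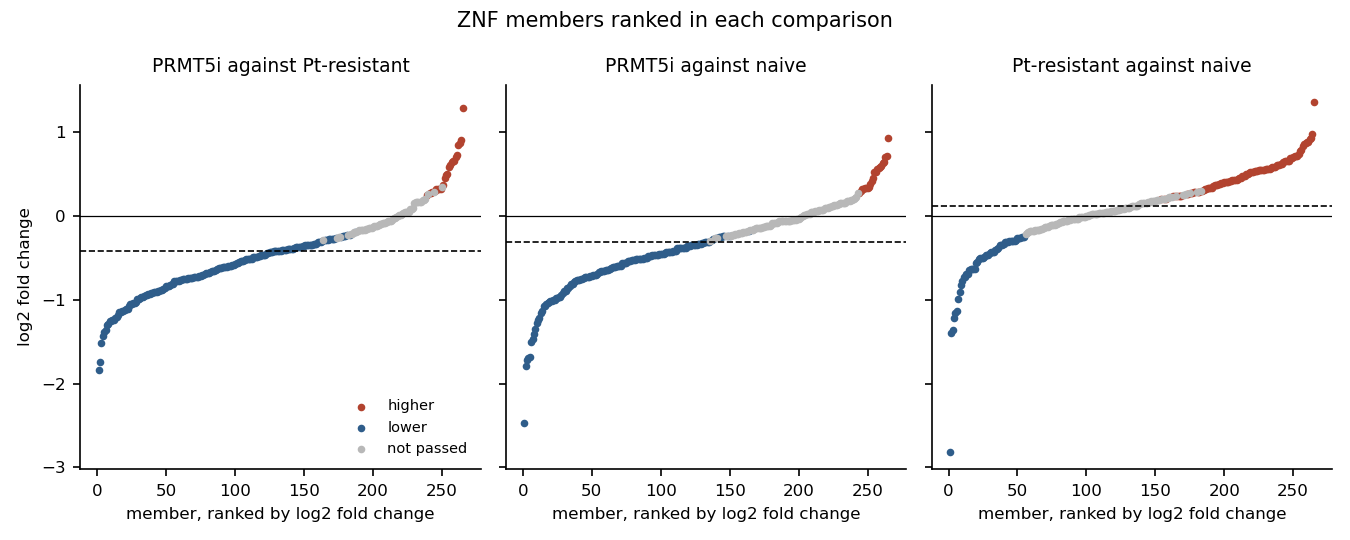
Log2 fold change of the 265 members, ranked within each of the 3 comparisons, with members that rose or fell in the edgeR test in colour and members that did not pass in grey; the dashed line is the median of the members. Most points lie below 0 in PRMT5i against Pt-resistant cells (179 fell, 24 rose) and in PRMT5i against naive cells (146 fell, 22 rose), while more lie above 0 in Pt-resistant against naive cells (99 rose, 55 fell).

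Of the 6 largest falls under the inhibitor, 5 belonged to genes with a KRAB domain in their longest transcript, ZNF133 being the other. This domain was carried by 59.2% of all members. Of the 157 members with it 17 fell by 2-fold or more, and of the 108 members without it 11 did (6.51% of all tested genes). ZNF33B, a KRAB zinc finger gene on chromosome 10, had 12.1, 12.8 and 13.1 CPM in PRMT5i cells, 39.2, 47.0 and 49.97 in Pt-resistant cells and 34.0, 48.9 and 39.8 in naive cells. Its PRMT5i libraries lay far below all 6 others, and its level was 3.58-fold lower in PRMT5i than in Pt-resistant cells (log2 fold change -1.84 ± 0.12 (SE), edgeR adjusted p = 7.57e-12). ZNF302, a KRAB gene on chromosome 19, had 8.64, 7.28 and 7.56 CPM in PRMT5i cells, 22.1, 27.3 and 28.9 in Pt-resistant cells and 24.7, 29.97 and 27.2 in naive cells, again with no overlap between PRMT5i cells and the other groups (log2 fold change -1.74 ± 0.12 (SE), edgeR adjusted p = 2.37e-11). ZNF12, a KRAB gene on chromosome 7, had 35.2, 39.1 and 34.2 CPM in PRMT5i cells, 94.1, 110.4 and 105 in Pt-resistant cells and 53.3, 67.7 and 58.5 in naive cells. The 3 groups of ZNF12 did not overlap, with PRMT5i cells lowest and Pt-resistant cells highest (log2 fold change -1.51 ± 0.09 (SE), edgeR adjusted p = 2.35e-12). ZNF587B (log2 fold change -1.43 ± 0.13, adjusted p = 1.31e-09), ZNF181 (log2 fold change -1.39 ± 0.13, adjusted p = 2.43e-09) and ZNF133 (log2 fold change -1.37 ± 0.14, adjusted p = 1.28e-08) completed the 6 largest falls by edgeR. The exons of ZNF587B share 14.6% of their bases with another gene of the same strand, which makes its counts uncertain.

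The members with the highest CPM were among those that fell. ZNF146 had 307, 336 and 381 CPM in PRMT5i cells, 540.3, 589 and 595 in Pt-resistant cells and 405, 454 and 447 in naive cells. Its PRMT5i libraries lay below all Pt-resistant and naive libraries (log2 fold change -0.75 ± 0.08 (SE), edgeR adjusted p = 4.76e-08). ZNF664 had 137, 151 and 133 CPM in PRMT5i cells, 336, 325 and 331 in Pt-resistant cells and 382, 404 and 408 in naive cells, and it was 2.36-fold lower in PRMT5i than in Pt-resistant cells (log2 fold change -1.24 ± 0.08 (SE), edgeR adjusted p = 1.76e-12). ZNF24, a SCAN domain transcription factor, had 146, 166 and 160.5 CPM in PRMT5i cells, 253, 270.1 and 289 in Pt-resistant cells and 139.9, 193 and 162 in naive cells. For ZNF24 the PRMT5i and naive libraries overlapped, and the Pt-resistant libraries stood above both (log2 fold change -0.78 ± 0.09 (SE), edgeR adjusted p = 1.67e-07). ZNF768 (log2 fold change -1.05 ± 0.09, adjusted p = 2.71e-10) and ZNF787 (log2 fold change -0.66 ± 0.07, adjusted p = 4.15e-08) also fell by edgeR, and ZNF512B, at 82.6 ± 1.45 CPM in PRMT5i cells and 103 ± 4.45 in Pt-resistant cells (SD, n = 3 each), fell by a smaller amount (log2 fold change -0.32 ± 0.07, adjusted p = 6.28e-04).

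**Figure D2:**
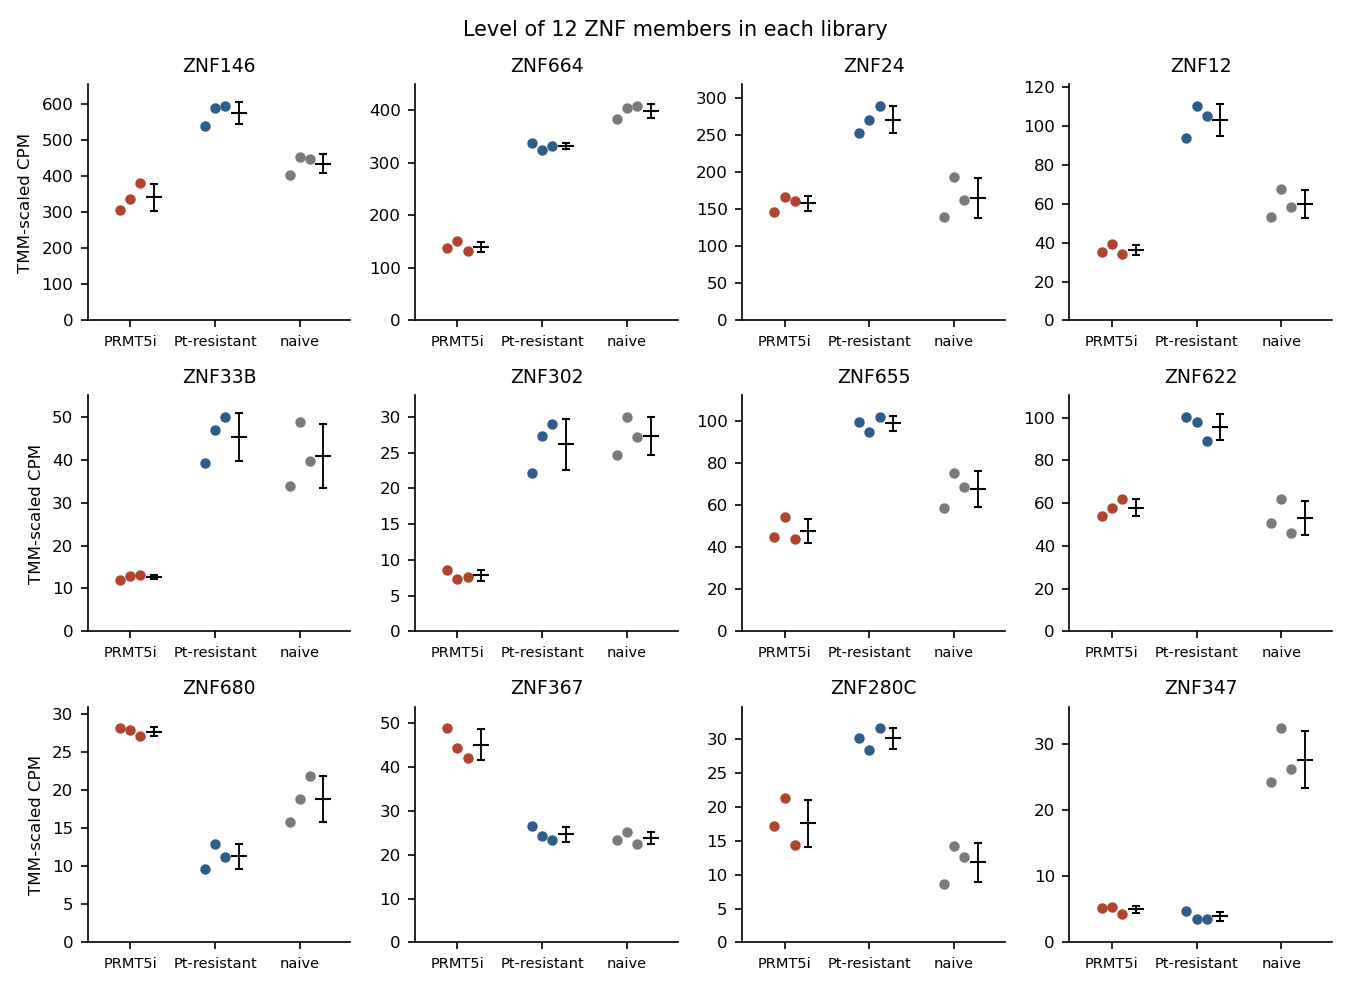
Level in CPM (TMM-scaled, linear axes starting at 0) of 12 members in each of the 9 libraries, with PRMT5i cells left, Pt-resistant cells in the middle and naive cells right; bars show the mean and SD of 3 libraries. ZNF33B, ZNF302 and ZNF664 are low in PRMT5i cells alone, ZNF24 and ZNF622 are high in Pt-resistant cells alone, ZNF680 and ZNF367 are highest in PRMT5i cells, and ZNF347 is high in naive cells alone.

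Neighbouring genes were examined together, since ZNF genes sit in runs of copies. Family genes no more than 250000 bases apart were joined into runs, and 20 runs held at least 3 members, 150 members in all. The run at the end of chromosome 19 between ZNF264 and ZNF446 held 24 members, 22 of them with KRAB. Of these 23 fell in PRMT5i against Pt-resistant cells and 0 rose, the member outside this pattern being ZNF584 (log2 fold change 0.02 ± 0.09 (SE), edgeR adjusted p = 0.874), beside 67.5% of all members and 30.5% of all tested genes that fell. The median of the run was -0.72 and 5 members fell by 2-fold or more. Summed, the run gave 515 ± 17.4 CPM in PRMT5i cells, 813 ± 2.89 CPM in Pt-resistant cells and 677 ± 92.7 CPM in naive cells (SD, n = 3 each). The run was singled out after its values were seen, so the counts describe it and carry no test.

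Within this run ZNF274, which binds the 3′ ends of ZNF genes and recruits SETDB1 there, had 65.0, 63.2 and 59.0 CPM in PRMT5i cells, 91.1, 86.2 and 82.8 in Pt-resistant cells and 53.2, 73.6 and 54.7 in naive cells. Its Pt-resistant libraries stood above the libraries of both other groups (log2 fold change -0.47 ± 0.10 (SE), edgeR adjusted p = 2.02e-04). ZNF544, the gene of the run with the highest level per kilobase, averaged 68.5 ± 4.59 CPM in PRMT5i cells, 109 ± 5.997 in Pt-resistant cells and 81.2 ± 11.1 in naive cells (SD, n = 3 each). ZNF134 (log2 fold change -1.18 ± 0.14, adjusted p = 9.04e-08), ZNF17 (log2 fold change -1.13 ± 0.13, adjusted p = 1.06e-07), ZNF773 (log2 fold change -1.11 ± 0.12, adjusted p = 2.14e-08) and ZNF552 (log2 fold change -1.04 ± 0.12, adjusted p = 1.17e-07) were the other members of the run that fell by 2-fold or more by edgeR beside ZNF587B. ZNF587, the near copy of ZNF587B, fell less (log2 fold change -0.34 ± 0.11, adjusted p = 0.0134), and reads shared by this pair of copies may be missing from both. Against naive cells 18 of the 24 members were lower in PRMT5i cells and 0 higher, and 13 were higher in Pt-resistant than in naive cells and 0 lower, beside 31.2% of all tested genes lower in PRMT5i than in naive cells and 29.8% higher in Pt-resistant than in naive cells. The 3 comparisons share libraries and are not independent of each other.

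The promoters of these genes had letters in common. RefSeq promoters of GRCh38.p14, running 250 bases before to 50 after the start of each gene, matched 234 of the 265 members by name, 22 of them in this run. Both strands were searched for 7 motifs: AACTACAT, which holds the ACTACA that opens the motif described for ZNF143, the ETS core CCGGAAG, the CCAAT box, AATCAGGC, GATTGGAC, the GC box GGGCGG and the cAMP response element TGACGTCA. The motifs were chosen after the promoters were seen, and a match is a description of letters. AACTACAT stood in 10 of the 22 promoters of the run (45.5%), in 7 of 202 other members outside it and outside the set described next (3.47%), and in 0.894% of all 27305 promoters. CCGGAAG stood in 17 of the 22 (77.3%), against 35.1% of those other members and 10.7% of all promoters. Of the 7 other members with AACTACAT, 5 fell in PRMT5i against Pt-resistant cells and 0 rose, a share close to the 67.5% of all 265 members that fell. Among the 5 is ZNF112, which passed the 10 CPM limit through Pt-resistant cells alone, so its fall was favoured by the rule. A pair of promoters of the run is shown, that of the member with the largest fall and that of ZNF551, because each holds AACTACAT, CCGGAAG and CCAAT. Capitals mark these 3 motifs on either strand.
ZNF587B chr19:57830049-57830348 (+): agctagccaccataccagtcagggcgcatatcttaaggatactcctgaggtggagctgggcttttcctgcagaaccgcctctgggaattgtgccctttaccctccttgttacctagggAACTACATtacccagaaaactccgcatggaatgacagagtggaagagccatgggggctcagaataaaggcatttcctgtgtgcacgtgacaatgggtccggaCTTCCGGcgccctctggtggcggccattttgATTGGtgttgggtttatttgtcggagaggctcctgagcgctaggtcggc
ZNF551 chr19:57681727-57682026 (+): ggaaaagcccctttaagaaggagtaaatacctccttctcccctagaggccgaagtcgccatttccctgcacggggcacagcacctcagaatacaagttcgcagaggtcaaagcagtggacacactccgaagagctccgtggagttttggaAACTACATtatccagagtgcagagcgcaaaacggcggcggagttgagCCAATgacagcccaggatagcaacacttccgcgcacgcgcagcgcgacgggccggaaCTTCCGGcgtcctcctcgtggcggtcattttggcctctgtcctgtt

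ZNF551 had 13.1, 15.7 and 13.3 CPM in PRMT5i cells, against 21.6, 22.3 and 21.2 in Pt-resistant cells, and these groups did not overlap (log2 fold change -0.63 ± 0.14 (SE), edgeR adjusted p = 3.18e-04). ZNF587B, whose promoter is the first of the pair, had 7.58, 7.55 and 9.23 CPM in PRMT5i cells, against 20.7, 21.8 and 23.1 in Pt-resistant cells.

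**Figure D3:**
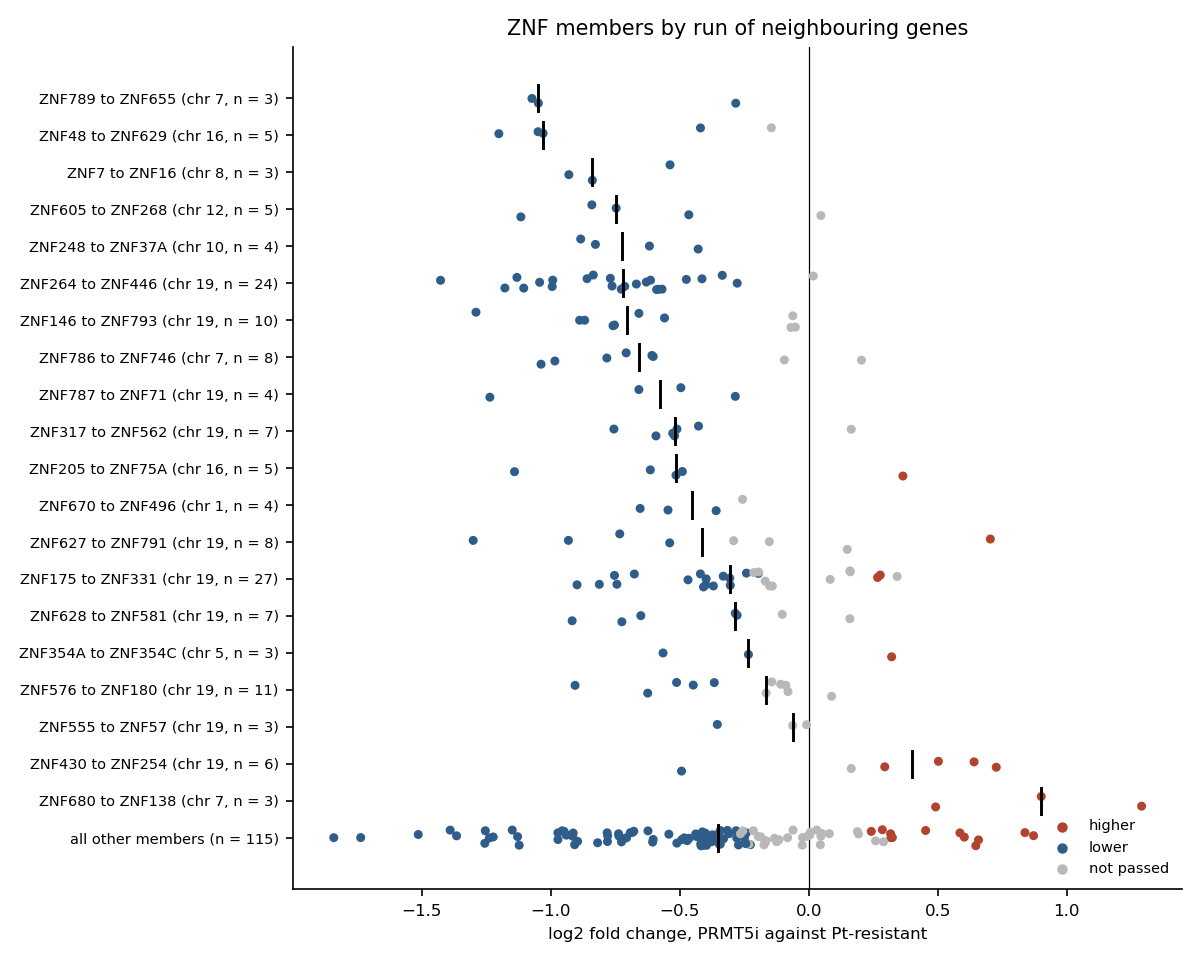
Log2 fold change of each member in PRMT5i against Pt-resistant cells, grouped by the 20 runs of neighbouring genes and ordered by the median of each run (bar), with the 115 members outside such runs in a group of their own. The ZNF680 to ZNF138 and ZNF430 to ZNF254 runs have medians above 0, and the ZNF264 to ZNF446 run has its 24 points between -1.43 and 0.02.

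The 24 members that rose under the inhibitor included a set of near copies on chromosomes 7 and 19. ZNF680, a KRAB gene on chromosome 7, had 28.2, 27.9 and 27.1 CPM in PRMT5i cells, 9.62, 12.99 and 11.3 in Pt-resistant cells and 15.8, 18.8 and 21.9 in naive cells. All 3 PRMT5i libraries stood above all 6 others, and the level was 2.45-fold that of Pt-resistant cells (log2 fold change 1.29 ± 0.12 (SE), edgeR adjusted p = 2.59e-09). Its neighbour ZNF107 had 18.3, 18.4 and 19.7 CPM in PRMT5i cells, 8.72, 9.48 and 11.9 in Pt-resistant cells and 14.9, 13.8 and 15.6 in naive cells, with no overlap between PRMT5i and Pt-resistant cells (log2 fold change 0.90 ± 0.12 (SE), edgeR adjusted p = 5.20e-07). ZNF138, the remaining member of that run, averaged 13.01 ± 1.44 CPM in PRMT5i cells, 9.26 ± 0.474 in Pt-resistant cells and 10.4 ± 1.20 in naive cells (SD, n = 3 each), with a log2 fold change of 0.49 between PRMT5i and Pt-resistant cells, and it passed the 10 CPM limit through PRMT5i cells. ZNF92, also on chromosome 7, averaged 44.0 ± 1.51 CPM in PRMT5i cells, 29.2 ± 3.29 in Pt-resistant cells and 39.5 ± 4.83 in naive cells (SD, n = 3 each), with a log2 fold change of 0.59 ± 0.10 (SE) between PRMT5i and Pt-resistant cells (edgeR adjusted p = 1.82e-05).

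On chromosome 19 the run between ZNF430 and ZNF254 held 6 members. ZNF430 had 15.6, 12.8 and 14.7 CPM in PRMT5i cells, 8.17, 8.36 and 9.51 in Pt-resistant cells and 9.60, 9.76 and 8.44 in naive cells, and its PRMT5i libraries stood above all others (log2 fold change 0.73 between PRMT5i and Pt-resistant cells). ZNF430 and ZNF431 (log2 fold change 0.50) averaged under 10 CPM over the other 6 libraries and passed the limit through PRMT5i cells, so no test of their rise is given. ZNF675 (log2 fold change 0.64 ± 0.12, adjusted p = 5.95e-05) and ZNF254 (log2 fold change 0.29 ± 0.11, adjusted p = 0.0265) were higher by edgeR, ZNF714 did not pass (log2 fold change 0.16 ± 0.11, adjusted p = 0.199), and ZNF91, which represses SVA transposable elements, fell (log2 fold change -0.49 ± 0.13, adjusted p = 0.00189). Together the 10 members of both runs and ZNF92 gave 199.8 ± 6.54 CPM in PRMT5i cells, 138 ± 15.2 CPM in Pt-resistant cells and 182 ± 15.6 CPM in naive cells (SD, n = 3 each). Genes within each of these runs are related copies, so reads that map to several of them are not counted. The set of 10 was chosen after its values were seen, and 3 of its members, ZNF138, ZNF430 and ZNF431, passed the limit through PRMT5i cells alone, so its sum is a description.

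All 10 promoters of this set held AATCAGGC, and 9 held GATTGGAC, which in the promoters shown lies on the other strand and overlaps it. AATCAGGC was found in 10 of 202 promoters of the other members (4.95%), in 0 of the 22 of the ZNF264 run and in 1.0% of all promoters, and GATTGGAC in 5.94% of the other members and 1.04% of all promoters. CCAAT stood in 10 of the 10, in 68.2% of the ZNF264 run, in 38.1% of the other members and in 35.7% of all promoters, and CCGGAAG in 9 of the 10. AACTACAT was in none of the 10. GGGCGG stood in 4 of them, against 64.9% of the other members and 44.6% of all promoters. TGACGTCA was in none of them, against 5.45% of the other members and 1.98% of all promoters. Among the other members with KRAB, AATCAGGC stood in 8.11%, CCGGAAG in 38.7% and GGGCGG in 61.3%. Of the 10 other members whose promoters hold AATCAGGC, 1 rose and 7 fell in PRMT5i against Pt-resistant cells, beside 9.06% and 67.5% of all members. Among the 7 are ZNF79, ZNF136 and ZNF441, which passed the 10 CPM limit through Pt-resistant cells alone, so their fall was favoured by the rule. The promoters of the member with the largest rise, of its neighbour and of ZNF430 are shown because they carry the same block on different chromosomes. Capitals mark AATCAGGC with the GATTGGAC that overlaps it, and CCGGAAG on the other strand.
ZNF680 chr7:64563022-64563321 (-): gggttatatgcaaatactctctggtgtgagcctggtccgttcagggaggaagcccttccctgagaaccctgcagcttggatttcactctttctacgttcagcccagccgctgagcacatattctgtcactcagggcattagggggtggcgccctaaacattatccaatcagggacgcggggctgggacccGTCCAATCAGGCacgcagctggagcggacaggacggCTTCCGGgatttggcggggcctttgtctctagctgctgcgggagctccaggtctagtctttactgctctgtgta
ZNF107 chr7:64665883-64666182 (+): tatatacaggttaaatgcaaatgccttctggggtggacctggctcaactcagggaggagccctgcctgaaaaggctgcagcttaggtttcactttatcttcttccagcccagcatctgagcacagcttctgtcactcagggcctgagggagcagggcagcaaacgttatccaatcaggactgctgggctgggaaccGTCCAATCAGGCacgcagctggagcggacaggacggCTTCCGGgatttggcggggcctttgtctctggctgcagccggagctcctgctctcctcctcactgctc
ZNF430 chr19:21020407-21020706 (+): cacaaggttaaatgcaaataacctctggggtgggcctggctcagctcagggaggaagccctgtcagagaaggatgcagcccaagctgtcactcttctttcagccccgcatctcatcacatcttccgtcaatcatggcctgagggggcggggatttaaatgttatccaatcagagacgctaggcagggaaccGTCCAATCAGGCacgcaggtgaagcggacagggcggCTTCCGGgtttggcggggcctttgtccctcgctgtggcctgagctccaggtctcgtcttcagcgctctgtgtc

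Outside these runs the members that rose had varied roles. ZNF367, a DNA-binding protein with few fingers, had 48.8, 44.3 and 41.9 CPM in PRMT5i cells, 26.4, 24.2 and 23.2 in Pt-resistant cells and 23.4, 25.2 and 22.5 in naive cells. Pt-resistant and naive libraries of ZNF367 overlapped, and the PRMT5i libraries stood above both (log2 fold change 0.87 ± 0.09 (SE), edgeR adjusted p = 1.73e-08). ZNF395, which is induced by hypoxia, averaged 39.9 ± 2.11 CPM in PRMT5i cells, 22.3 ± 1.28 in Pt-resistant cells and 30.7 ± 3.62 in naive cells (SD, n = 3 each), with a log2 fold change of 0.84 ± 0.10 (SE) between PRMT5i and Pt-resistant cells (edgeR adjusted p = 7.09e-08), although 34.9% of its exon bases are shared with another gene of the same strand. ZNF823 (log2 fold change 0.70 ± 0.12, adjusted p = 2.67e-05), ZNF185, a LIM protein that binds actin (log2 fold change 0.66 ± 0.11, adjusted p = 1.43e-05), ZNF618, a partner of UHRF2 (log2 fold change 0.65 ± 0.10, adjusted p = 5.94e-06), ZNF267 (log2 fold change 0.60 ± 0.11, adjusted p = 4.42e-05) and ZNF608 (log2 fold change 0.45 ± 0.09, adjusted p = 1.17e-04) were higher by edgeR with fold changes between those of ZNF680 and ZNF331. The imprinted gene ZNF331 rose by little (log2 fold change 0.27 ± 0.09, adjusted p = 0.0121), and without Pt-resistant replicate 2 (log2 fold change 0.21, adjusted p = 0.0766) it did not pass by edgeR.

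Against naive cells the PRMT5i cells also had lower levels of most members. In this comparison 146 members fell (55.1%) and 22 rose (8.30%) by edgeR, against 31.2% and 32.2% of all tested genes, and 97 did not pass. Of the falls 7 belonged to members that passed the limit through naive cells alone, and of the rises 5 to members that passed it through PRMT5i cells alone. The median log2 fold change was -0.31, against 0.00 over all tested genes. The mitochondrial shares of counts overlapped between these groups, at 6.26 to 8.31% in PRMT5i cells and 5.97 to 7.82% in naive cells. At 2-fold or more 22 members were lower (9.15% of all tested genes) and 0 higher (10.7%). Libraries of the 2 groups did not overlap for 142 members that were lower (32.8% of all tested genes) and 25 that were higher (33.6% of all tested genes) in PRMT5i cells. ZNF664 showed the largest fall among the 10 members with the highest CPM (log2 fold change -1.51 ± 0.08 (SE), edgeR adjusted p = 3.48e-14). ZNF302 (log2 fold change -1.79 ± 0.12, adjusted p = 9.53e-12), ZNF33B (log2 fold change -1.69 ± 0.12, adjusted p = 2.79e-11) and ZNF649 (log2 fold change -1.69 ± 0.14, adjusted p = 2.85e-10) were more than 2-fold lower by edgeR. ZNF347 (log2 fold change -2.47) and ZNF362 (log2 fold change -1.71) were also among the 6 largest falls, but both passed the 10 CPM limit through naive cells alone, which favoured this direction, and no test of them is given.

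The members higher in PRMT5i than in naive cells were led by ZNF367 (log2 fold change 0.93 ± 0.09 (SE), edgeR adjusted p = 6.42e-09). ZNF330, a nucleolar protein, had 107, 105 and 114 CPM in PRMT5i cells, 108, 113 and 109.6 in Pt-resistant cells and 63.6, 69.98 and 64.8 in naive cells. Its PRMT5i and Pt-resistant libraries overlapped and both stood above naive cells (log2 fold change 0.71 ± 0.08 (SE), edgeR adjusted p = 1.82e-08). ZNF678 (log2 fold change 0.64 ± 0.15, adjusted p = 5.72e-04) and ZNF652, a transcriptional repressor (log2 fold change 0.59 ± 0.11, adjusted p = 3.21e-05), were higher by edgeR as well. ZNF57 (log2 fold change 0.70) and ZNF430 (log2 fold change 0.63) completed the 6 largest rises, and both averaged under 10 CPM over the 6 Pt-resistant and naive libraries, so their rise was favoured by the rule and no test of it is given.

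Across the 3 groups the lowest mean of a member was most often that of PRMT5i cells. This held for 183 members (69.1%), against 38 with the lowest mean in Pt-resistant and 44 in naive cells, while 34.9% of all tested genes were lowest in PRMT5i cells. For 118 members the 3 PRMT5i libraries lay below all 6 others (44.5%, against 18.7% of all tested genes), and for 13 above them (4.91%, against 20.6%). The highest mean was that of Pt-resistant cells for 155 members (58.5%, against 32.0% of all tested genes), of naive cells for 84 and of PRMT5i cells for 26. The 3 Pt-resistant libraries lay above the other 6 for 78 members (29.4%, against 16.1% of all tested genes). Passing the 10 CPM limit depended on PRMT5i cells for 6 members, on Pt-resistant cells for 14 and on naive cells for 7. For these the rule favoured a high level in that group, and they were not taken out of the counts of this paragraph.

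Pt-resistant cells differed from naive cells in both directions. By edgeR 99 members were higher (37.4%) and 55 lower (20.8%) in Pt-resistant cells, against 29.8% and 29.4% of all tested genes, and 111 did not pass. Of the members that were higher 11 passed the limit through Pt-resistant cells alone, and of those that were lower 5 passed it through naive cells alone. The median was 0.11, with the middle of the members between -0.16 and 0.39, against 0.01 over all tested genes, and 34.7% of the other genes of at least 10 CPM were higher. This median rested in part on single naive libraries, at 0.05 without naive replicate 1 and 0.19 without naive replicate 2. The groups did not overlap for 87 members that were higher (31.2% of all tested genes) and 57 that were lower (31.3%). Changes of 2-fold or more were few, with 1 member higher (6.73% of all tested genes) and 6 lower (9.13%). Naive libraries had the widest spread, with a median coefficient of variation of 11.2% over the members, against 7.63% in PRMT5i and 7.03% in Pt-resistant libraries. The mitochondrial shares of counts did not overlap between Pt-resistant cells (4.45 to 5.19%) and naive cells (5.97 to 7.82%), and their part in this comparison was not tested.

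The 1 member that was at least 2-fold higher was ZNF280C, which had 17.2, 21.2 and 14.3 CPM in PRMT5i cells, 30.2, 28.4 and 31.6 in Pt-resistant cells and 8.64, 14.2 and 12.6 in naive cells. The groups did not overlap, and Pt-resistant cells stood above both others (log2 fold change 1.36 ± 0.14 (SE), edgeR adjusted p = 1.98e-08). ZNF25 (log2 fold change 0.92 ± 0.10, adjusted p = 5.04e-08), ZNF133 (log2 fold change 0.92 ± 0.14, adjusted p = 3.74e-06), ZNF512 (log2 fold change 0.88 ± 0.08, adjusted p = 2.83e-09) and ZNF189 (log2 fold change 0.88 ± 0.11, adjusted p = 3.51e-07) were among the next by edgeR, of which ZNF512 shares 31.6% of its exon bases with another gene of the same strand. ZNF79 (log2 fold change 0.98) averaged under 10 CPM over the PRMT5i and naive libraries and passed the limit through Pt-resistant cells, at 17.1 ± 1.21 CPM (SD, n = 3), so its place among the 6 largest rises is a description. In PRMT5i cells ZNF79 had 9.07 ± 0.9001 CPM, ZNF25 14.2 ± 0.854 CPM and ZNF189 19.3 ± 1.43 CPM, while the same genes had 8.74 ± 1.82, 13.8 ± 0.880 and 19.7 ± 3.05 CPM in naive cells (SD, n = 3 each).

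Among the members lower in Pt-resistant cells, ZNF347, a KRAB gene on chromosome 19, stood apart. It had 5.21, 5.41 and 4.35 CPM in PRMT5i cells, 4.75, 3.57 and 3.53 in Pt-resistant cells and 24.3, 32.4 and 26.2 in naive cells. Naive libraries were several times above the others, which overlapped each other, and the gene was 7.02-fold lower in Pt-resistant than in naive cells (log2 fold change -2.81). ZNF347 passed the 10 CPM limit through naive cells alone, as did ZNF793 (log2 fold change -1.399) and ZNF362 (log2 fold change -1.37), so a difference in this direction was favoured by the rule and no test of these 3 is given. ZNF649 (log2 fold change -1.22 ± 0.13, adjusted p = 4.00e-08), ZNF618 (log2 fold change -1.16 ± 0.10, adjusted p = 5.87e-10) and ZNF331 (log2 fold change -1.13 ± 0.09, adjusted p = 1.03e-10) were also more than 2-fold lower by edgeR. ZNF618 averaged 27.8 ± 3.51 CPM in PRMT5i cells, 17.7 ± 0.695 in Pt-resistant cells and 39.6 ± 1.57 in naive cells (SD, n = 3 each), and ZNF331 29.02 ± 0.514 CPM in PRMT5i cells, 24.1 ± 1.94 in Pt-resistant cells and 52.8 ± 2.06 in naive cells (SD, n = 3 each).

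Members with known roles were taken from lists drawn up from textbook knowledge, and 42 of the listed genes were members. The counts of each list stand beside 30.5% of all tested genes lower and 31.9% higher in PRMT5i than in Pt-resistant cells, and 67.5% and 9.06% of the 265 members. Of the 8 listed genes that act on RNA, the ribosome or translation, 7 fell and 1 rose in PRMT5i against Pt-resistant cells, and 7 were higher (29.8% of all tested genes) and 1 lower (29.4%) in Pt-resistant than in naive cells. The 7 are the members of the list, and the gene that went the other way in both comparisons was ZNF385A, just under the limit at 8.98 CPM (log2 fold change 0.62 ± 0.13, adjusted p = 1.53e-04 in PRMT5i against Pt-resistant cells and log2 fold change -0.37 ± 0.13, adjusted p = 0.0177 in Pt-resistant against naive cells, by edgeR). The medians of the 8 were -0.59 and 0.52 in these comparisons, beside 0.01 and 0.01 over all tested genes and -0.41 and 0.11 over the 265 members. In PRMT5i against naive cells 2 of the 8 were lower and 0 higher, beside 31.2% and 32.2% of all tested genes. ZNF622, the homologue of yeast Rei1 in large ribosomal subunit biogenesis, had 53.9, 57.9 and 61.7 CPM in PRMT5i cells, 100.3, 98.0 and 88.9 in Pt-resistant cells and 50.7, 61.7 and 46.2 in naive cells. Its Pt-resistant libraries stood above both other groups, which overlapped (log2 fold change -0.73 ± 0.09 (SE), edgeR adjusted p = 4.29e-07). ZNF598, an E3 ubiquitin ligase that senses collided ribosomes, averaged 64.5 ± 1.16 CPM in PRMT5i cells, 89.5 ± 9.30 in Pt-resistant cells and 60.6 ± 4.29 in naive cells (SD, n = 3 each), with a log2 fold change of -0.47 ± 0.08 (SE) between PRMT5i and Pt-resistant cells (edgeR adjusted p = 3.69e-05). ZNF638, an RNA-binding protein that silences unintegrated retroviral DNA with the HUSH complex, averaged 119 ± 14.6 CPM in PRMT5i cells, 194 ± 19.3 in Pt-resistant cells and 137 ± 10.1 in naive cells (SD, n = 3 each), with a log2 fold change of -0.71 ± 0.09 (SE) between PRMT5i and Pt-resistant cells (edgeR adjusted p = 5.34e-07). ZNF326, a subunit of the DBIRD complex that couples transcription and splicing (log2 fold change -0.91 ± 0.10, adjusted p = 2.77e-08), ZNF346, which binds double-stranded RNA (log2 fold change -0.97 ± 0.12, adjusted p = 1.88e-07), ZNF593, homologue of yeast Bud20 (log2 fold change -0.31 ± 0.09, adjusted p = 0.00302), and the splicing factor ZNF830 (log2 fold change -0.34 ± 0.10, adjusted p = 0.00646) fell by edgeR. The fall of ZNF830 did not pass without PRMT5i replicate 3 (log2 fold change -0.27, adjusted p = 0.0527), and its rise in Pt-resistant cells did not pass without Pt-resistant replicate 2 (log2 fold change 0.25, adjusted p = 0.0741) or naive replicate 3 (log2 fold change 0.21, adjusted p = 0.123).

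Of 3 listed genes that act at the spindle or on the cell cycle 2 fell and 1 rose in PRMT5i against Pt-resistant cells (30.5% and 31.9% of all tested genes). The one that rose was ZNF365, which was below the limit at 2.51 CPM (log2 fold change 1.101 ± 0.25 (SE), edgeR adjusted p = 6.12e-04). ZNF655, a partner of VAV1 and CDK4, had 45.1, 54.4 and 44.0 CPM in PRMT5i cells, 99.5, 95.0 and 102 in Pt-resistant cells and 58.9, 75.4 and 68.8 in naive cells. All 3 groups were separate, in the order PRMT5i, naive, Pt-resistant from low to high (log2 fold change -1.05 ± 0.09 (SE), edgeR adjusted p = 1.48e-09). ZNF207 (BuGZ), which loads BUB3 on kinetochores, averaged 172 ± 10.7 CPM in PRMT5i cells, 205 ± 20.6 in Pt-resistant cells and 183 ± 19.1 in naive cells (SD, n = 3 each), and its fall (log2 fold change -0.25 ± 0.09 (SE), edgeR adjusted p = 0.0174) did not pass without PRMT5i replicate 3 (log2 fold change -0.20, adjusted p = 0.0980) or Pt-resistant replicate 1 (log2 fold change -0.17, adjusted p = 0.114).

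Of 8 listed promoter-binding regulators 7 were members and could be tested, and of these 4 fell and 0 rose in PRMT5i against Pt-resistant cells (30.5% and 31.9% of all tested genes). ZNF143 and ZNF76 are paralogous activators that bind the same kind of promoter. ZNF76 had 20.01, 21.2 and 20.1 CPM in PRMT5i cells, 41.3, 38.8 and 40.1 in Pt-resistant cells and 23.9, 26.5 and 26.1 in naive cells, with Pt-resistant cells above both other groups (log2 fold change -0.97 ± 0.09 (SE), edgeR adjusted p = 1.58e-09). ZNF143 had 26.3, 24.5 and 25.1 CPM in PRMT5i cells, 20.7, 28.0 and 24.8 in Pt-resistant cells and 16.8, 22.9 and 21.7 in naive cells, and PRMT5i and Pt-resistant cells overlapped (log2 fold change 0.05 ± 0.12 (SE), edgeR adjusted p = 0.740). ZNF148 (ZBP-89), which binds GC-rich promoters, fell (log2 fold change -0.37 ± 0.09, adjusted p = 6.05e-04 by edgeR), as did ZNF263 (log2 fold change -0.49 ± 0.08, adjusted p = 2.31e-05 by edgeR) and ZNF335, part of a histone methyltransferase complex (log2 fold change -0.28 ± 0.11, adjusted p = 0.0282 by edgeR). The call of ZNF335 was lost without PRMT5i replicate 1 (log2 fold change -0.20, adjusted p = 0.158) or Pt-resistant replicate 3 (log2 fold change -0.21, adjusted p = 0.142) by edgeR. ZNF281 (log2 fold change -0.08 ± 0.09, adjusted p = 0.415) and ZNF384 (log2 fold change -0.17 ± 0.09, adjusted p = 0.113) did not pass by edgeR. Of the 7, 3 were higher and 0 lower in Pt-resistant than in naive cells, beside 29.8% and 29.4% of all tested genes and 37.4% and 20.8% of the 265 members. The 3 were ZNF76 (log2 fold change 0.65 ± 0.09, adjusted p = 7.11e-07 by edgeR), ZNF263 (log2 fold change 0.24 ± 0.08, adjusted p = 0.0168) and ZNF148 (log2 fold change 0.20 ± 0.09, adjusted p = 0.0448). The edgeR call of ZNF148 was lost in 11 of 17 alternatives, among them the fits without PRMT5i replicate 1 (log2 fold change 0.20, adjusted p = 0.0515), PRMT5i replicate 3 (log2 fold change 0.20, adjusted p = 0.0523), Pt-resistant replicate 1 (log2 fold change 0.21, adjusted p = 0.0551), Pt-resistant replicate 2 (log2 fold change 0.20, adjusted p = 0.0905), Pt-resistant replicate 3 (log2 fold change 0.19, adjusted p = 0.125), naive replicate 1 (log2 fold change 0.10, adjusted p = 0.309) or naive replicate 3 (log2 fold change 0.22, adjusted p = 0.0702). That of ZNF263 was lost by edgeR without Pt-resistant replicate 2 (log2 fold change 0.21, adjusted p = 0.0660), Pt-resistant replicate 3 (log2 fold change 0.22, adjusted p = 0.0631) or naive replicate 1 (log2 fold change 0.19, adjusted p = 0.0881), and 33.1% of the exon bases of ZNF263 and 31.9% of those of ZNF384 lie antisense to another gene.

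The genes of the Z3 complex, in which ZNF592, ZNF532 and ZNF687 work with the chromatin reader ZMYND8, were lower under the inhibitor together with related cofactors, 6 of 6 by edgeR (30.5% of all tested genes). ZNF592 averaged 25.4 ± 2.91 CPM in PRMT5i cells, 37.0 ± 0.544 in Pt-resistant cells and 38.6 ± 7.76 in naive cells (SD, n = 3 each), with a log2 fold change of -0.54 ± 0.11 (SE) between PRMT5i and Pt-resistant cells (edgeR adjusted p = 2.41e-04). ZNF687 averaged 59.1 ± 4.15 CPM in PRMT5i cells, 77.9 ± 7.08 in Pt-resistant cells and 64.3 ± 7.75 in naive cells (SD, n = 3 each), with a log2 fold change of -0.40 ± 0.09 (SE) between PRMT5i and Pt-resistant cells (edgeR adjusted p = 6.71e-04), and ZNF532, at 13.1 ± 2.74 CPM in PRMT5i cells and 16.7 ± 0.745 in Pt-resistant cells (SD, n = 3 each), fell as well (log2 fold change -0.35 ± 0.12 (SE), edgeR adjusted p = 0.0165) but not without PRMT5i replicate 1 (log2 fold change -0.20, adjusted p = 0.164) or Pt-resistant replicate 3 (log2 fold change -0.32, adjusted p = 0.06003). ZNF644, which works with the H3K9 methyltransferases G9a and GLP, averaged 134 ± 10.1 CPM in PRMT5i cells, 170.1 ± 11.2 in Pt-resistant cells and 125 ± 16.8 in naive cells (SD, n = 3 each), with a log2 fold change of -0.34 ± 0.09 (SE) between PRMT5i and Pt-resistant cells (edgeR adjusted p = 0.00221). ZNF518A (log2 fold change -0.42 ± 0.10, adjusted p = 0.00107) and ZNF518B (log2 fold change -0.28 ± 0.10, adjusted p = 0.0138) fell by edgeR, ZNF518B not without PRMT5i replicate 1 (log2 fold change -0.24, adjusted p = 0.0672) or Pt-resistant replicate 3 (log2 fold change -0.26, adjusted p = 0.0526). Against naive cells ZNF592 (log2 fold change -0.60 ± 0.11, adjusted p = 7.77e-05) and ZNF532 (log2 fold change -0.65 ± 0.12, adjusted p = 6.97e-05) were lower in PRMT5i cells by edgeR and ZNF518B higher (log2 fold change 0.34 ± 0.10, adjusted p = 0.00533), the last not without naive replicate 1 (log2 fold change 0.23, adjusted p = 0.0550).

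Of 6 genes listed for a link to oncogenes 4 fell and 1 rose in PRMT5i against Pt-resistant cells (30.5% and 31.9% of all tested genes), the 4 being members. ZNF703, below the limit at 8.55 CPM, rose (log2 fold change 0.95 ± 0.14 (SE), edgeR adjusted p = 1.91e-06), and ZNF165, at 9.79 CPM, did not pass (log2 fold change -0.16 ± 0.13 (SE), edgeR adjusted p = 0.265). ZNF217, an oncogene at 20q13 that works with CoREST and LSD1, had 79.9, 90.5 and 86.3 CPM in PRMT5i cells, 115, 103 and 108 in Pt-resistant cells and 116, 124 and 106 in naive cells. Its PRMT5i libraries stood below both other groups (log2 fold change -0.34 ± 0.08 (SE), edgeR adjusted p = 7.62e-04). ZNF304, a KRAB protein of the ZNF264 run (log2 fold change -0.59 ± 0.11, adjusted p = 4.37e-05), and ZNF706 (log2 fold change -0.41 ± 0.10, adjusted p = 0.001004) fell by edgeR beside ZNF146.

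Of 13 listed corepressor-linked and other regulators 12 were members and could be tested, with 6 lower and 1 higher in PRMT5i than in Pt-resistant cells (30.5% and 31.9% of all tested genes). ZNF746 (PARIS) averaged 27.5 ± 0.551 CPM in PRMT5i cells, 44.9 ± 1.81 in Pt-resistant cells and 34.4 ± 3.57 in naive cells (SD, n = 3 each), with a log2 fold change of -0.71 ± 0.09 (SE) between PRMT5i and Pt-resistant cells (edgeR adjusted p = 3.16e-07). ZNF24, ZNF318 (log2 fold change -0.40 ± 0.10, adjusted p = 8.55e-04), ZNF131 (log2 fold change -0.33 ± 0.08, adjusted p = 0.00143), ZNF524, which binds telomeres (log2 fold change -0.28 ± 0.09, adjusted p = 0.0115), and ZNF462 (log2 fold change -0.27 ± 0.11, adjusted p = 0.0377) were the other members that fell by edgeR. The edgeR call of ZNF524 was lost without Pt-resistant replicate 3 (log2 fold change -0.25, adjusted p = 0.0548), and that of ZNF462 without PRMT5i replicate 1 (log2 fold change -0.15, adjusted p = 0.269), Pt-resistant replicate 1 (log2 fold change -0.17, adjusted p = 0.207) or Pt-resistant replicate 3 (log2 fold change -0.26, adjusted p = 0.0892). The SUMO ligase ZNF451 (log2 fold change -0.13 ± 0.09, adjusted p = 0.255), ZNF827, which brings NuRD to telomeres (log2 fold change -0.20 ± 0.10, adjusted p = 0.106), ZNF292 (log2 fold change 0.03 ± 0.10, adjusted p = 0.806), ZNF503 (log2 fold change -0.06 ± 0.08, adjusted p = 0.522) and ZNF652 (log2 fold change 0.19 ± 0.10, adjusted p = 0.109) did not pass by edgeR. ZNF503 averaged 76.7 ± 5.16 CPM in PRMT5i cells, 80.1 ± 3.71 in Pt-resistant cells and 109 ± 6.77 in naive cells (SD, n = 3 each), lower in both resistant groups than in naive cells (log2 fold change -0.51 ± 0.08 (SE), edgeR adjusted p = 6.09e-06 for PRMT5i against naive cells). ZNF185 averaged 23.3 ± 1.26 CPM in PRMT5i cells, 14.8 ± 1.28 in Pt-resistant cells and 27.7 ± 3.64 in naive cells (SD, n = 3 each), and was lower in Pt-resistant than in naive cells (log2 fold change -0.90 ± 0.11 (SE), edgeR adjusted p = 1.47e-07).

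Of 6 listed genes of ZNF gene clusters, the members ZNF91, ZNF317, ZNF649 and ZNF721 fell by edgeR in PRMT5i against Pt-resistant cells (30.5% of all tested genes), with log2 fold changes between -0.53 and -0.38. The other listed genes, ZNF43 at 0.636 CPM (log2 fold change 0.43 ± 0.47, adjusted p = 0.430) and ZNF93 at 0.457 CPM (log2 fold change 0.61 ± 0.83, adjusted p = 0.535), lay far below the limit and did not pass by edgeR. ZNF649 passed with an adjusted p of 0.00838 by edgeR and did not pass without Pt-resistant replicate 3 (log2 fold change -0.38, adjusted p = 0.0528). ZNF721 shares 25.8% of its exon bases with another gene of the same strand.

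**Figure D4:**
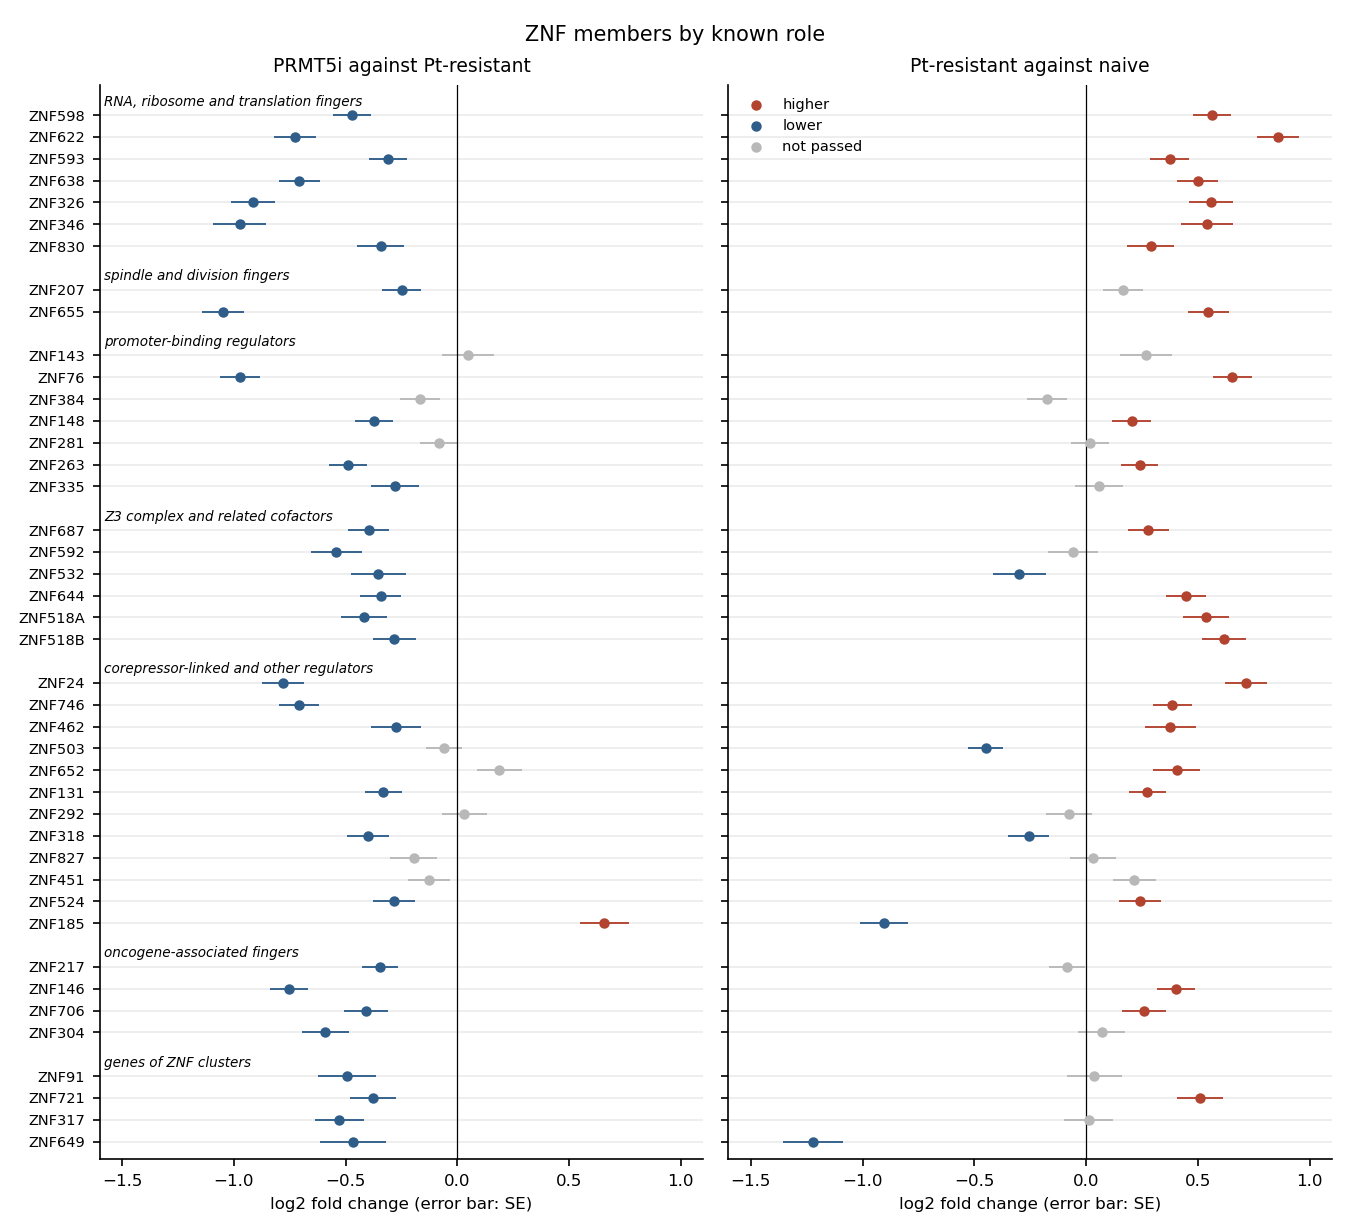
Log2 fold change with its standard error for the 42 members of the role lists, in PRMT5i against Pt-resistant cells and in Pt-resistant against naive cells, grouped by list; listed genes below the 10 CPM limit, of which ZNF385A, ZNF365 and ZNF703 rose in PRMT5i against Pt-resistant cells, are not drawn. The 7 members that act on RNA, the ribosome or translation lie below 0 in PRMT5i against Pt-resistant cells and above 0 in Pt-resistant against naive cells, and ZNF185 is the member of the lists that rose under the inhibitor.

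Falls under the inhibitor were seen with and without KRAB. Of 157 members with a KRAB domain 106 fell and 16 rose in PRMT5i against Pt-resistant cells, with a median of -0.49, and of 108 members with none in their longest transcript 73 fell and 8 rose, with a median of -0.37. Both shares, 67.5% and 67.6%, were above the 30.5% of all tested genes that fell. Summed, KRAB members gave 3457 ± 92.3 CPM in PRMT5i cells, 4746 ± 122 CPM in Pt-resistant cells and 4465 ± 503 CPM in naive cells, and the others 4818 ± 111 CPM in PRMT5i cells, 6676 ± 84.2 CPM in Pt-resistant cells and 6058 ± 364 CPM in naive cells (SD, n = 3 each). The difference between these classes was not tested, and annotated transcripts other than the longest may carry a KRAB domain.

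The 12 members with a SCAN domain all fell by edgeR, beside 67.5% of all members and 30.5% of all tested genes, with log2 fold changes between -1.14 and -0.27 and a median of -0.58. ZNF213 averaged 7.66 ± 1.11 CPM in PRMT5i cells, 16.8 ± 1.35 in Pt-resistant cells and 12.6 ± 1.06 in naive cells (SD, n = 3 each), the largest fall of this class (log2 fold change -1.14 ± 0.13 (SE), edgeR adjusted p = 3.61e-08), and ZNF397 6.95 ± 1.15 CPM in PRMT5i cells, 15.2 ± 0.864 in Pt-resistant cells and 14.4 ± 1.61 in naive cells (SD, n = 3 each), with a log2 fold change of -1.12 ± 0.13 (SE) between PRMT5i and Pt-resistant cells (edgeR adjusted p = 9.50e-08). Against naive cells 10 of the 12 were lower in PRMT5i cells and 0 higher (31.2% and 32.2% of all tested genes), with a median of -0.39. By number of fingers, 26 of 44 members with 0 to 4 fingers fell and 10 rose, 63 of 79 with 5 to 9 fell and 1 rose, 56 of 90 with 10 to 14 fell and 9 rose, and 34 of 52 with 15 or more fell and 4 rose, so that the share that fell was 59.1, 79.7, 62.2 and 65.4% in these classes, beside 30.5% of all tested genes. Members on chromosome 19 (80 of 119 fell, 8 rose) and elsewhere (99 of 146 fell, 16 rose) had medians of -0.42 and -0.41, and their shares that fell, 67.2% and 67.8%, were close to each other. No member was taken out of the counts by KRAB, SCAN, finger number or chromosome for passing the limit through a single group. Among all 265 members, 12 of the falls and 3 of the rises in PRMT5i against Pt-resistant cells were favoured by the rule in this way.

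The genes of the proteins that KRAB fingers work with changed in both directions. Of 24 listed partners 9 were higher (37.5%) and 5 lower (20.8%) in PRMT5i than in Pt-resistant cells, with a median of 0.14, not far from the 31.9% and 30.5% of all tested genes. In Pt-resistant against naive cells 4 were higher (16.7%) and 13 lower (54.2%), with a median of -0.24, beside 29.8% and 29.4% of all tested genes. TRIM28 averaged 669 ± 52.3 CPM in PRMT5i cells, 658 ± 43.6 in Pt-resistant cells and 868 ± 35.7 in naive cells (SD, n = 3 each), with no detectable difference between PRMT5i and Pt-resistant cells (log2 fold change 0.02 ± 0.08 (SE), edgeR adjusted p = 0.824). CBX5, an HP1 protein, had 188, 226 and 194 CPM in PRMT5i cells, 96.5, 107 and 106 in Pt-resistant cells and 220.2, 219 and 213 in naive cells, and its Pt-resistant libraries stood below both other groups (log2 fold change 0.97 ± 0.08 (SE), edgeR adjusted p = 3.78e-10). CBX1 (log2 fold change 0.89 ± 0.09, adjusted p = 1.27e-08), DNMT1 (log2 fold change 0.54 ± 0.08, adjusted p = 3.35e-06) and UHRF1 (log2 fold change 1.12 ± 0.13, adjusted p = 7.89e-08), which maintain heterochromatin and DNA methylation, were higher by edgeR. The 5 that were lower by edgeR were CHD3 (log2 fold change -0.64 ± 0.07, adjusted p = 1.01e-07), TRIM24 (log2 fold change -0.61 ± 0.08, adjusted p = 4.86e-07), TRIM33 (log2 fold change -0.43 ± 0.09, adjusted p = 1.79e-04), MORC3 (log2 fold change -0.23 ± 0.09, adjusted p = 0.0337) and, by the least, SETDB1 (log2 fold change -0.18 ± 0.08, adjusted p = 0.0495). MPHOSPH8, the HUSH subunit that reads H3K9 methylation, averaged 93.0 ± 4.05 CPM in PRMT5i cells, 76.5 ± 0.701 in Pt-resistant cells and 40.9 ± 1.39 in naive cells (SD, n = 3 each).

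Some members differed little between group means. The smallest ranges of group means were those of ZNF510, ZNF511 and ZNF292. ZNF510 averaged 15.5 ± 2.67 CPM in PRMT5i cells, 15.5 ± 1.12 in Pt-resistant cells and 15.3 ± 2.24 in naive cells (SD, n = 3 each) and ZNF292 56.2 ± 7.01 CPM in PRMT5i cells, 55.0 ± 4.04 in Pt-resistant cells and 58.1 ± 8.07 in naive cells (SD, n = 3 each), and neither passed in any of the 3 comparisons by edgeR. The exons of ZNF511 are shared in part with genes on both strands, so its counts are uncertain.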

How the data were processed

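RNA from 9 libraries of OVCAR4 cells was sequenced by the authors with a directional kit, checked with FastQC, and aligned and counted per gene with STAR. The sources used here name no versions, genome build, annotation or counted strand. The authors deposited raw counts, 1 whole number per gene and library. This counting drops multi-mapping reads and reads over several genes, so near copies are undercounted. Counts were tested with edgeR 4.0.16 (R 4.3.3; quasi-likelihood, TMM, filterByExpr with a minimum count of 10, 9 libraries in 1 fit, Benjamini-Hochberg over 14630 genes, threshold 0.05), after a check on simulated data. Levels in the text are TMM-scaled CPM. Gene type, exons and proteins came from GENCODE 29, and KRAB and SCAN domains from HMMER 3.4 profiles at an E-value under 0.001. DESeq2 1.42.0, limma-voom (limma 3.58.1), other scalings and filters, a replicate block, leaving out each library and other member limits were the alternatives; leaving out members that share over 10% of exon bases with another gene was added after seeing the data. The members and lists were chosen with earlier results of these data known. Named were the 10 highest members, the 6 largest changes per direction and comparison without overlap of groups, the 3 genes on each side of the limit, the 3 with the smallest range and role-list members; further members of the runs and classes described were named after their values were seen. The rule leaves out 1 gene symbol, which is not reported here.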

Additional observations from a re-analysis of the deposited data

How the results depend on the processing

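The counts of members that rose or fell and the 3 medians stayed within 1.5 times of the reported counts, or within the spread, under RLE scaling, library size alone, DESeq2, limma-voom, both other filters and the fit of 2 groups. No call of a named member turned into a call in the opposite direction. A requirement of at least 2-fold change cut the counts to 1 higher and 28 lower in PRMT5i against Pt-resistant cells, 0 higher and 22 lower in PRMT5i against naive cells, and 1 higher and 6 lower in Pt-resistant against naive cells, by its construction. Leaving out each library in turn gave 161 to 180 lower and 19 to 25 higher members in PRMT5i against Pt-resistant cells (median -0.44 to -0.39), 129 to 155 lower and 16 to 29 higher in PRMT5i against naive cells (median -0.37 to -0.22), and 46 to 57 lower and 75 to 120 higher in Pt-resistant against naive cells (median 0.05 to 0.19). Deviations of same-numbered libraries correlated between -0.28 and 0.26 over 10605 genes, and those of differently numbered libraries between -0.41 and 0.27. The replicate numbers thus showed no clear pairing, but such values cannot tell whether wells were handled in numbered sets. With a replicate block the counts were 24 higher and 179 lower in PRMT5i against Pt-resistant cells, 22 and 149 in PRMT5i against naive cells, and 104 and 56 in Pt-resistant against naive cells, with medians of -0.41, -0.31 and 0.11. Without the 53 members that share over 10% of exon bases with another gene, an alternative added after seeing the data, 22 rose and 139 fell in PRMT5i against Pt-resistant cells. Of the single calls of the 75 named members under the alternatives, 3709 kept their side of the threshold, 82 were lost and 34 gained, most often ZNF148 in Pt-resistant against naive cells (lost) and ZNF638 in PRMT5i against naive cells (gained). In Pt-resistant against naive cells the edgeR call of ZNF678 was lost without PRMT5i replicate 3 (log2 fold change 0.35, adjusted p = 0.0539), Pt-resistant replicate 1 (log2 fold change 0.32, adjusted p = 0.0945), Pt-resistant replicate 3 (log2 fold change 0.31, adjusted p = 0.133), naive replicate 1 (log2 fold change 0.18, adjusted p = 0.305) or naive replicate 3 (log2 fold change 0.39, adjusted p = 0.0567), and that of ZNF524 without Pt-resistant replicate 2 (log2 fold change 0.20, adjusted p = 0.117), Pt-resistant replicate 3 (log2 fold change 0.20, adjusted p = 0.129), naive replicate 1 (log2 fold change 0.21, adjusted p = 0.0969) or naive replicate 2 (log2 fold change 0.19, adjusted p = 0.121). How far read assignment limits near copies and overlapping genes, or depth the members close to 10 CPM, was not measured.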

Other observations

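The family genes below the 10 CPM limit were not part of the comparisons above. Of these 243 genes 164 could be tested, and by edgeR 25 were higher (15.2%) and 61 lower (37.2%) in PRMT5i than in Pt-resistant cells, beside 31.9% and 30.5% of all tested genes. In PRMT5i against naive cells 18 were higher (10.98%) and 88 lower (53.7%), beside 32.2% and 31.2%, and in Pt-resistant against naive cells 27 were higher (16.5%) and 65 lower (39.6%), beside 29.8% and 29.4%. Their median log2 fold changes were -0.25, -0.57 and -0.25. In Pt-resistant against naive cells their median was below 0, whereas that of the 265 members was 0.11, and this difference was not tested.

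Among the 27 members of the ZNF175 to ZNF331 run on chromosome 19, 17 fell (63.0%) and 0 rose in PRMT5i against naive cells, beside 31.2% and 32.2% of all tested genes. In PRMT5i against Pt-resistant cells 16 fell (59.3%) and 2 rose, beside 30.5% and 31.9%, and in Pt-resistant against naive cells 9 were lower (33.3%) and 5 higher (18.5%), beside 29.4% and 29.8%. ZNF347 and ZNF577 of this run passed the 10 CPM limit through naive cells alone. Both are among the members lower in PRMT5i and in Pt-resistant than in naive cells, a direction that the rule favoured. On chromosome 7 the ZNF786 to ZNF746 run, with 8 members that all carry KRAB, had 7 members lower in PRMT5i than in naive cells (31.2% of all tested genes) and 6 lower in PRMT5i than in Pt-resistant cells (30.5%), with 0 higher in either. The ZNF576 to ZNF180 run of 11 members had 7 higher (29.8% of all tested genes) and 0 lower in Pt-resistant against naive cells, and 5 lower (30.5%) and 0 higher in PRMT5i against Pt-resistant cells. ZNF112 is among both the 7 and the 5, and it passed the limit through Pt-resistant cells alone, so the rule favoured both of its changes. These runs were picked after their values were seen.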
